A study of Mus musculus with 2 samples.

Results

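The genes described are 9 of the 22350 protein-coding genes annotated on the mouse autosomes and X: the 7 genes of cyclin-dependent kinase (CDK) inhibitors, Cdkn1a, Cdkn1b, Cdkn1c, Cdkn2a, Cdkn2b, Cdkn2c and Cdkn2d, with the p53 gene Trp53 and its antagonist Mdm2. They were chosen by name, as regulators of the cell cycle that act on or beside cyclin D1, and all 9 were found in the annotation of build NCBIM37 (mm9). The data were 2 libraries of chromatin immunoprecipitation followed by sequencing (ChIP-seq), 1 with the anti-FLAG antibody M2 and 1 with normal mouse IgG. Both came from the same untreated cells, 3T3 mouse embryonic fibroblasts with the genotype Ccnd1-/- that carry FLAG-tagged cyclin D1 from the retroviral vector MSCV-FLAG/Cyclin D1, grown in DMEM with 10% FBS. The tagged protein is thus made from a viral vector and not from its own gene, 3T3 lines are immortalised by serial passage, and the labels do not say whether the line is a clone or a pool.

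CDK inhibitors of the Cip/Kip family (Cdkn1a, Cdkn1b and Cdkn1c) bind complexes of cyclins with CDKs, and those of the Ink4 family (Cdkn2a to Cdkn2d) bind CDK4 and CDK6, the kinases that cyclin D1 activates. p53 is a transcription factor that induces Cdkn1a after DNA damage, and Mdm2 is the ubiquitin ligase that degrades p53. Arf, a second protein of the Cdkn2a locus, blocks Mdm2, and fibroblasts that escape senescence as 3T3 lines often lose either p53 or the Cdkn2a locus.

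The anti-FLAG library held 9255188 tags on the autosomes and X and the IgG library 9308877, or 7.02 and 7.06 tags per 2-kb window on average, and a tag is 1 mapped position of 36 bases. There was 1 library per antibody, so every test below compares these 2 libraries over counting error and none measures the spread between replicates. Introns 1 to 3 of Ccnd1, the deleted gene, cover 4955 bp of unique sequence and held 2 tags in each library, where the genome mean would give 17.4 and 17.5, while intron 4, of 1244 bp, held 14 anti-FLAG and 5 IgG tags. GC content moved with the ratio between the libraries: in 500-bp windows over 10 kb from every gene start the ratio of anti-FLAG to scaled IgG tags rose from 0.677 at 24 to 26% GC to 2.23 at 60 to 62% GC. The ratio expected from GC is therefore given beside the promoter ratios of the 9 genes. For it, each 500-bp part of a promoter took the tag rates of distant windows in its 2-point range of GC content. The parts were then added up. Parts of 66% GC or more shared the rates of all such windows together, where the scaled ratio was 3.85. Differences in GC content above 66% were thus not followed.

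Promoter sequences are shown for the genes whose starts carried the clearest difference in tags, together with the Arf start of Cdkn2a, the second start of Cdkn1a, the start of Cdkn2b and a site upstream of Mdm2. They run 5′ to 3′ on the strand of the gene, were read from NCBIM37, and end at the base before the annotated start, except the Mdm2 upstream site, which is the 250-bp stretch with the most anti-FLAG tags in its region. Capitals mark matches on either strand to 4 motifs. The Sp1 motif GGGCGG occurs in 39.6% of all promoters over 250 bases, the CCAAT box in 34.97%, the E2F motif TTTCCCGC in 1.08% and the cAMP response element TGACGTCA in 1.91%. A second E2F motif, TTTGGCGC (0.510% of promoters), the AP-1 motif TGANTCA (6.004%) and the NRF1 motif (0.895%) were searched too and have no match in the sequences shown. No match overlapped a match to another motif.
Trp53-Wrap53, chr11:69393758-69393860: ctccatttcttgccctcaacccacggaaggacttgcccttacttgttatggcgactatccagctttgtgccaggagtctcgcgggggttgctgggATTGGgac
Mdm2, chr10:117147815-117148064, minus strand: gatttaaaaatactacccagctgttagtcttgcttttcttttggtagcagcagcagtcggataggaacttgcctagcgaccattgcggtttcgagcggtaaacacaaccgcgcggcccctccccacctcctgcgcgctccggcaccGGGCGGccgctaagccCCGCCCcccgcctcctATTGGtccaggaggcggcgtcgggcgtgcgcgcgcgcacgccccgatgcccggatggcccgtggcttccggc
Mdm2 upstream site, chr10:117155251-117155500, minus strand: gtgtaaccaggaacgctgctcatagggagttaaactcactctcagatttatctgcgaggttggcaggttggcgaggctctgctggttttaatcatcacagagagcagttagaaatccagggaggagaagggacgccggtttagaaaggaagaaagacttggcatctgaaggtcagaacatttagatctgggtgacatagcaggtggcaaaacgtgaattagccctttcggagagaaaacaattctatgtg
Cdkn1b, chr6:134870169-134870418: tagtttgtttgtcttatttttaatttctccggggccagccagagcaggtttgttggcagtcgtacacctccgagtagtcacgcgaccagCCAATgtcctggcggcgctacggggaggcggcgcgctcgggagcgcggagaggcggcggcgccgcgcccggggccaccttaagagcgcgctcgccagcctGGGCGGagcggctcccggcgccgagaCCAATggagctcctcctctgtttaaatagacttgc
Cdkn1a, chr17:29230467-29230716: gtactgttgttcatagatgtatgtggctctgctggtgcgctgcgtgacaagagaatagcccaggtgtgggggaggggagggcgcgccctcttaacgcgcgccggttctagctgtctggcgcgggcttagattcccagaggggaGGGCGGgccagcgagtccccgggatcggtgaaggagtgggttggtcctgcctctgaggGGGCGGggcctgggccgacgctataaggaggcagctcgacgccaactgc
Cdkn2a (Arf), chr4:88940558-88940807, minus strand: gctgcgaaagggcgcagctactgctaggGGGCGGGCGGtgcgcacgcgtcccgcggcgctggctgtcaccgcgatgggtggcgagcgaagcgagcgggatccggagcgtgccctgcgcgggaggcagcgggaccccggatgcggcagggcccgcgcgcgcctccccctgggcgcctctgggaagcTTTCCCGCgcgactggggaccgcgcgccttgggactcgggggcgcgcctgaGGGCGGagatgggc
Cdkn2b, chr4:88956942-88957191, minus strand: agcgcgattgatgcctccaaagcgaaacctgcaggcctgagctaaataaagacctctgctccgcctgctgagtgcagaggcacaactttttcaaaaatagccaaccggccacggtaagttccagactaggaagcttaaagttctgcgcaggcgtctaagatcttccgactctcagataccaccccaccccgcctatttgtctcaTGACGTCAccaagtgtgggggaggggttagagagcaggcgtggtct
The stretch for Trp53 is short because Wrap53, a gene on the opposite strand, starts 104 bp away, so these 103 bases are all that lies between the 2 starts. It holds 1 CCAAT box, which lies on the opposite strand, and 0 Sp1 motifs. The Cdkn1b stretch holds 2 CCAAT boxes and 1 Sp1 motif, the Mdm2 stretch 1 CCAAT box and 2 Sp1 motifs, and the stretch before the second Cdkn1a start 2 Sp1 motifs. The Arf stretch of Cdkn2a is 77.6% GC and has 3 Sp1 motifs and 1 E2F motif, 65 bases before the start. The Cdkn2b stretch has 1 cAMP response element, 46 bases before the start, and no other match. A match is a run of letters, not a measured site.

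At the promoters, taken as 1 kb to each side of a gene's 5′ end, Trp53, Mdm2 and Cdkn1b held more anti-FLAG than IgG tags, by 3.33-fold, 3.58-fold and 3.52-fold after scaling to library totals. Of the 9 genes, 5 reached the 20 tags in both libraries together that the test required, and 3 of these 5 were higher in the anti-FLAG library, 0 were lower and 2 did not pass. Over all 10947 promoters tested, 29.7% were higher and 0.0913% lower by the same rule (exact conditional binomial test, Benjamini-Hochberg adjusted p under 0.05). The median log2 ratio of the 5 was 1.68, and that of all promoters tested 0.88. With the ratio expected from GC content in place of 1, 1 of the 5 passed, Trp53, beside 1.7% of all promoters, and the medians were 0.79 and 0.42.

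**Figure D1:**
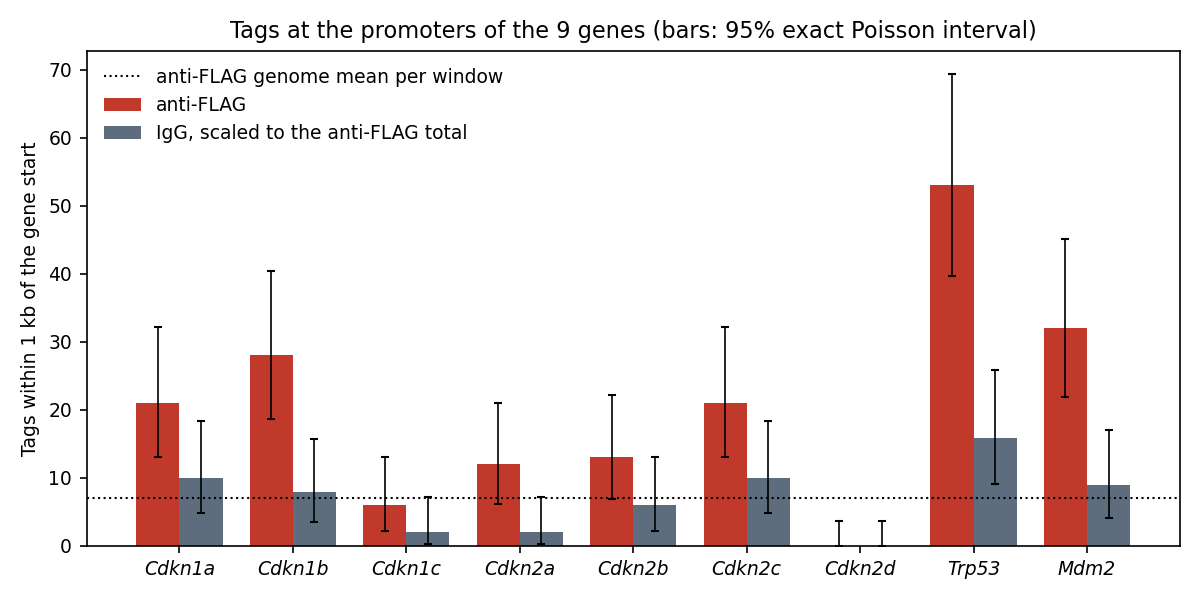
Tags within 1 kb of the start of each of the 9 genes, anti-FLAG beside IgG, the latter scaled to the anti-FLAG total, with exact 95% Poisson intervals as bars and the anti-FLAG genome mean of 7.02 tags per window as a dotted line. Trp53 had the most tags in either library, 53 and 16, and Cdkn2d had 0 in both.

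Trp53 had 53 anti-FLAG and 16 IgG tags at its promoter (chr11, start at 69393861, plus strand). Both counts are above the genome mean per window, and the anti-FLAG count is at percentile 99.8 of all protein-coding promoters. The log2 ratio of Trp53 stands lower, at percentile 87.5 of the promoters tested, beside 88.8 for Mdm2 and 87.9 for Cdkn1b. The scaled ratio was 3.33 (95% interval 1.88 to 6.24, log2 1.68, exact binomial test adjusted p = 0.000361). The GC content of the window was 50.2% and the ratio expected from GC 1.27. The corrected log2 ratio was 1.33 (exact binomial test adjusted p = 0.0326). The tags stood mostly on the upstream side, 31 against 6 in the kilobase before the start and 22 against 10 in the kilobase after it. The fullest 250-bp bin, 12 against 2, lay 750 to 1000 bp upstream, inside Wrap53, the antisense neighbour whose product guides telomerase RNA to Cajal bodies. The promoter windows of the 2 genes share nearly all their tags, with 52 and 16 counted for Wrap53, so the 2 counts are 1 measurement. Tags of precipitated DNA carry no strand of transcription, so they cannot be assigned to either gene.

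Mdm2 had 32 anti-FLAG and 9 IgG tags at its promoter (chr10, start at 117147814, minus strand), a ratio of 3.58 (95% interval 1.67 to 8.52, log2 1.73, exact binomial test adjusted p = 0.00400). The excess lay on either side of the start, 20 against 7 upstream and 12 against 2 downstream. The GC content was 57.5% and the ratio expected from GC 1.48. The corrected log2 ratio of 1.16 did not pass (exact binomial test adjusted p = 0.187). Transcripts of Mdm2 start at a second promoter as well, the one that p53 induces. The annotated starts 466 bp downstream belong to nonsense-mediated decay and processed transcripts, and the annotation does not say whether they mark that promoter. They had 32 against 10 tags within 1 kb, a window that overlaps the first (ratio expected from GC 1.43, corrected log2 ratio 1.08). Within 500 bp either side the counts there were 14 against 0. No expected ratio was computed for this narrower window, and the bins from 0 to 750 bp after the gene start were 67.2 to 76% GC. The start of a retained-intron transcript 19238 bp downstream had 16 against 18.

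Cdkn1b, which encodes p27, an inhibitor of cyclin E-CDK2 that complexes of cyclin D also bind, had 28 anti-FLAG and 8 IgG tags (chr6, start at 134870419, plus strand). The ratio was 3.52 (95% interval 1.56 to 8.94, log2 1.70, exact binomial test adjusted p = 0.00731). These tags were more concentrated than those of Trp53: within 500 bp of the start the counts were 21 against 1, and the 250 bp just upstream, the stretch whose bases are printed above, had 11 against 0. The 250-bp bins within 500 bp of the start were 57.6 to 68.8% GC, and no expected ratio was computed for that narrower window. The GC content of the 2-kb window was 59.8% and the ratio expected from GC 1.87. The corrected log2 ratio of 0.79 did not pass (exact binomial test adjusted p = 0.431).

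**Figure D2:**
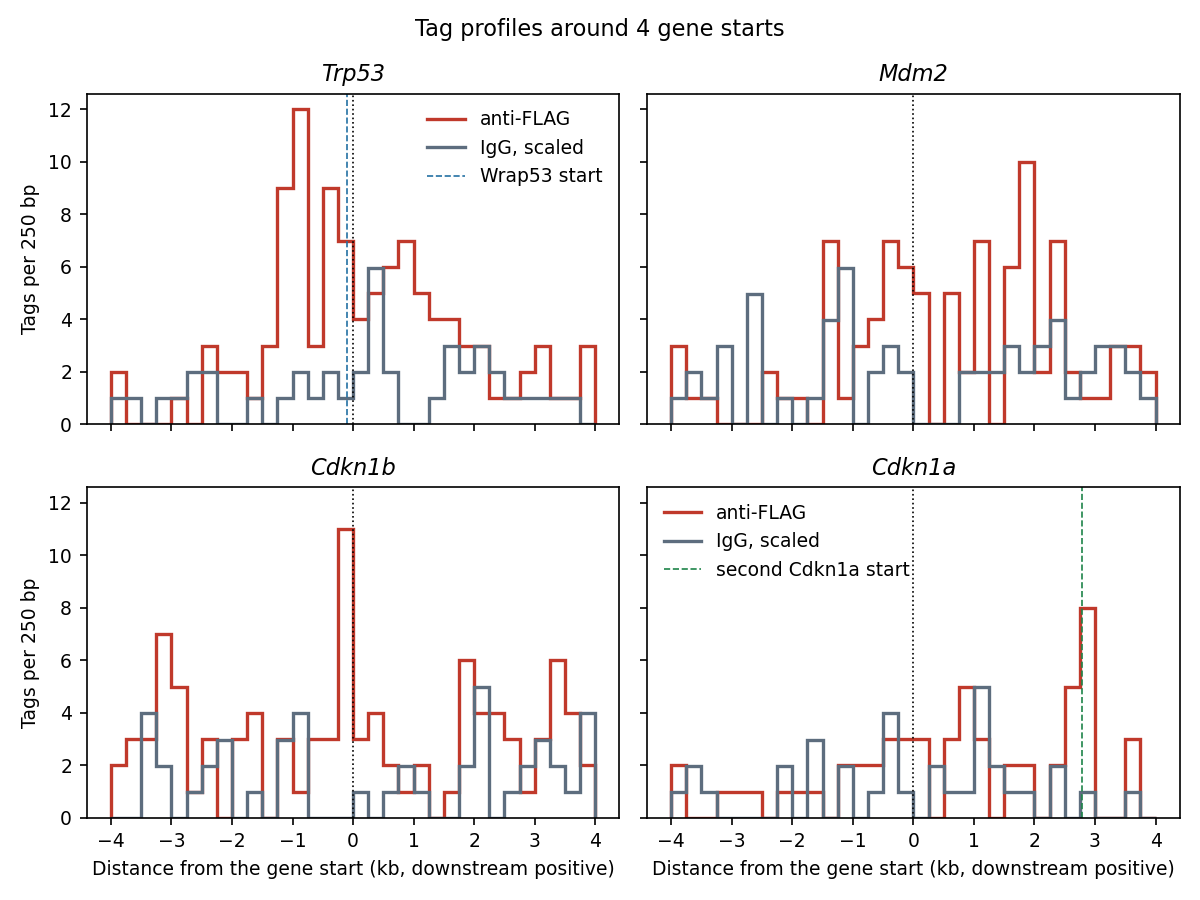
Tags per 250 bp from 4 kb upstream to 4 kb downstream of the starts of 4 genes, with IgG tags scaled to the anti-FLAG total and dashed lines at the Wrap53 start and at the second Cdkn1a start. The anti-FLAG tags of Cdkn1b peak at 11 just before its start, where IgG has 0, while those of Trp53 peak at 12 on the Wrap53 side.

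Cdkn1a encodes p21, the CDK inhibitor that p53 induces, and it has 3 annotated starts. At the most upstream one (chr17, 29227924) 21 anti-FLAG and 10 IgG tags gave a ratio of 2.11 (95% interval 0.952 to 5.02, log2 1.01, exact binomial test adjusted p = 0.114). The ratio expected from GC was 1.17, and the corrected log2 ratio was 0.78 (exact binomial test adjusted p = 0.486), close to the 0.79 of Cdkn1b. The second start, 2793 bp downstream, is preceded by the GC-rich sequence shown above and had 20 against 4 tags, a ratio of 5.03 (95% interval 1.68 to 20.2). There the ratio expected from GC was 1.64 and the corrected log2 ratio 1.37. In the profile, the 250-bp bin that holds this start had 8 against 1 and the one before it 5 against 0. The third start, 7228 bp downstream, had 6 against 8. The order of the 3 starts was not tested.

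Cdkn2c, the gene of the Ink4 inhibitor p18, also had 21 against 10 tags at its 5′ end (chr4, 109339794, minus strand) and did not pass (log2 1.01, exact binomial test adjusted p = 0.114). The ratio expected from GC was 1.34 and the corrected log2 ratio 0.59. Its second start, 1817 bp downstream, had 13 against 16. The upstream kilobase held 12 against 8 tags and the downstream one 9 against 2.

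The other 4 promoters held too few tags for the test. Cdkn2a, at the Arf start (chr4, 88940557, minus strand), had 12 anti-FLAG and 2 IgG tags, a ratio of 6.03 with a 95% interval from 1.34 to 55.5. This window was 61.9% GC, the ratio expected from GC was 2.00, and the GC-corrected interval ran from 0.671 to 27.7. The start of the p16 transcript, the Ink4a inhibitor of the same locus, lies 12461 bp downstream and had 20 against 11, a ratio of 1.83 (95% interval 0.835 to 4.23) where GC gave 1.14. Cdkn2b, the neighbouring gene of p15, had 13 against 6 (ratio 2.18, 95% interval 0.773 to 6.99, ratio expected from GC 1.22), with 9 against 1 after its start and 4 against 5 before it. Cdkn1c, the imprinted gene of p57, had 6 against 2 (ratio 3.02, 95% interval 0.540 to 30.6). It had the highest GC content of the 9 promoters, 66.2%, a ratio expected from GC of 2.77 and a corrected log2 ratio of −0.24. Cdkn2d, the gene of p19, had 0 tags in both libraries.

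**Figure D3:**
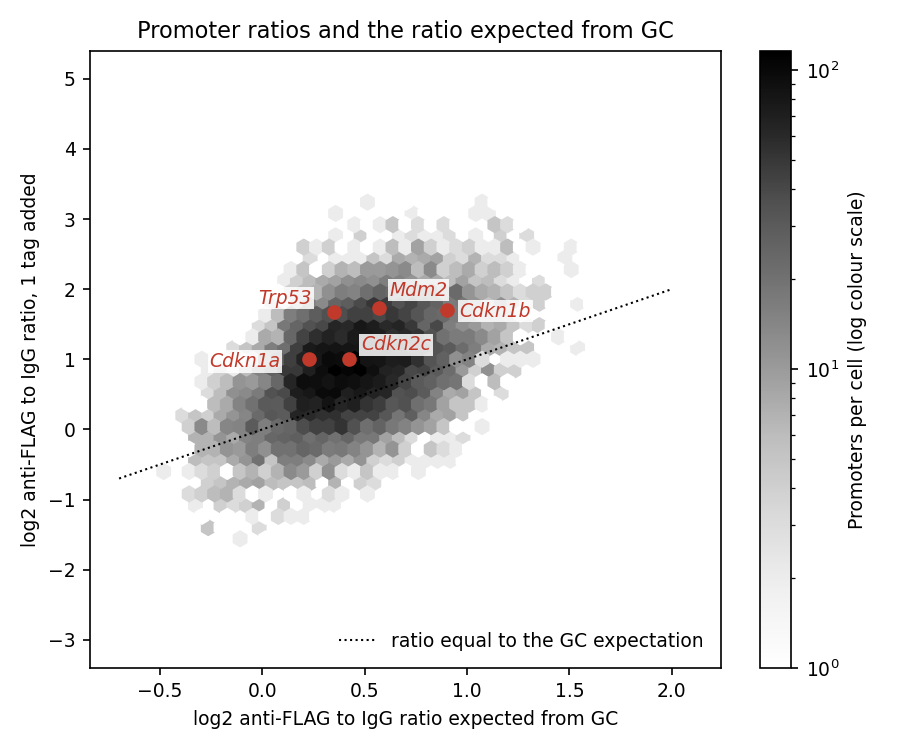
Log2 ratio of anti-FLAG to IgG tags at each tested promoter, with 1 tag added to each count, against the log2 ratio expected from GC. Grey cells count all 10947 promoters and labelled points are the 5 tested genes. The dotted line marks equality, and all 5 lie above it, Trp53 by 1.33, Mdm2 by 1.16, Cdkn1b by 0.79, Cdkn1a by 0.78 and Cdkn2c by 0.59. Most promoters do so too: the median over all 10947 lies 0.42 above the line.

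Neighbours in the order of the 5 tested promoters could not be told apart. From the highest ratio to the lowest they ran Mdm2, Cdkn1b, Trp53, Cdkn1a and Cdkn2c, the last 2 with the same counts, and the 4 neighbouring pairs had an unadjusted p from 0.338 to 1 in Fisher's exact test. The ends of that order, Mdm2 and Cdkn2c, had an unadjusted p of 0.420 in Fisher's exact test. Within 500 bp of the start Cdkn1b, Mdm2 and Trp53 had enough tags, with 21 against 1, 18 against 5 and 25 against 11. There, too, no neighbouring pair passed, with an unadjusted p of 0.187 for Cdkn1b and Mdm2 and 0.556 for Mdm2 and Trp53 in Fisher's exact test. The ends of this narrower order, Cdkn1b and Trp53, had an unadjusted p of 0.0207 in the same test. They were compared because they were the extremes, so this p overstates their difference. These pairs were compared without the GC correction.

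Regions of anti-FLAG tags, called in 500-bp windows against the largest of the local and genome-wide IgG levels (one-sided Poisson p under 1e-05), numbered 5939 over the genome. The p was not adjusted for the number of windows, and the same rule gave 152 regions when all tags were dealt to the 2 libraries at random. The 5939 regions overlapped the promoter window of 2 of the 9 genes, Trp53 and Cdkn1b, and of 7.34% of all protein-coding genes. With the GC correction 1 of the 9 remained, Trp53, beside 3.02%. The Trp53 region at chr11:69392501-69393750 had 39 anti-FLAG and 7 IgG tags, with 18 against 1 in its best window (6.24-fold over background, exact Poisson p = 1.95e-09), and lies over the 5′ part of Wrap53. A second region, at chr11:69394751-69395250 in the first intron of Trp53, had 14 against 1 and was not called with the GC correction. The Cdkn1b region at chr6:134870001-134870500 had 13 against 1 (4.67-fold, exact Poisson p = 7.44e-06). A further region 8332 bp downstream of the Cdkn1b start also had 13 against 1, and neither Cdkn1b region was called with the GC correction.

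Near Mdm2, 1 region was called, and it was not at the promoter. At chr10:117154501-117155750, 7312 bp upstream of the Mdm2 start, the annotated start nearest to it, 39 anti-FLAG and 4 IgG tags were counted. Its best window had 19 against 2 (6.71-fold, exact Poisson p = 2.21e-10). The region was also called with the GC correction and at a threshold of 1e-08, as was the Trp53 region. Its GC content was 48.2%, below that of the Mdm2 promoter window. The 250-bp stretch printed above held 12 against 1 of these tags and has 0 matches to the 7 motifs.

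Over whole genes 1 of the 9 passed the test. Cdkn1a was higher in the anti-FLAG library, with 69 against 40 tags, or 7.08 and 4.11 tags per kb (ratio 1.74, 95% interval 1.16 to 2.63, exact binomial test adjusted p = 0.0332). It was 1 of the 7 genes with enough tags, and over all 17825 genes tested 15.2% were higher and 3.76% lower. Cdkn1b, with 55 against 31 (ratio 1.78, 95% interval 1.13 to 2.87), lay just above the threshold and did not pass. Mdm2 had 199 against 161, Trp53 81 against 60, Cdkn2c 43 against 35 and Cdkn2b 31 against 20, with adjusted p from 0.136 to 0.576 in the same test. The longer Cdkn2a gene had 115 against 110 (ratio 1.05, 95% interval 0.803 to 1.38). The median log2 ratio was 0.44 over the 7 genes and 0.16 over all genes tested. With the GC correction 0 of the 7 passed, beside 0.92% of all genes, and without the kilobase next to the start 0 passed. For this last setting no share over all genes is at hand, so its count cannot be set against them. Cdkn1c had 14 against 3 and Cdkn2d 1 against 0 and were not tested.

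For Trp53 and Mdm2 the excess was larger at the promoter than in the rest of the same gene. Outside the promoter window Trp53 had 59 against 50 tags and Mdm2 187 against 159, and the odds ratios of promoter to rest were 2.81 and 3.02 (Fisher's exact test, p adjusted over all genes tested = 0.0317 and 0.0423). These were 2 of the 5 genes with enough tags in both parts, and over all 9933 genes so tested the excess was larger at the promoter in 11.4%. Cdkn1b and Cdkn2c gave odds ratios of 2.1 and 2.04 (Fisher's exact test, adjusted p = 0.308 and 0.309) and Cdkn1a 1.30 (adjusted p = 0.831 in the same test). With both parts corrected for GC neither Trp53 (odds ratio 2.69) nor Mdm2 (1.99) passed (exact noncentral hypergeometric test, adjusted p = 0.151 and 0.456), beside 0.443% of all genes. That test put the odds ratio expected from GC in place of 1, and these 2 odds ratios are relative to it. In the narrower window of 500 bp Cdkn1b passed, with an odds ratio of 13.1 (Fisher's exact test, adjusted p = 0.0101), beside 37.7% of the genes tested, while Mdm2 and Trp53 did not (Fisher's exact test, adjusted p = 0.0699 and 0.342).

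No locus was missing from the cells by tag density. A locus was called lost where the density in the 100 kb centred on the gene was under 0.25 times the median of all protein-coding genes in both libraries, and this held for 0 of the 9 genes and for 3.32% of all genes. Around Cdkn2a 350 anti-FLAG and 337 IgG tags were counted, 0.835 and 0.923 times the medians, and around Cdkn2b 293 and 255, or 0.699 times in each library. The windows of these neighbouring genes overlap over most of their length, so their counts are largely 1 measurement. Only 70.7% and 51.2% of these 2 windows is sequence that occurs once in the genome, against a median of 91.9%. Per kb of unique sequence the densities were 1.07 and 1.16 times the median around Cdkn2a and 1.24 and 1.21 around Cdkn2b. The rule is set to find loss of nearly all copies: in simulated data it called 50 of 50 loci that kept 0.05 of their tags and 0 of 50 that kept 0.5. These loci were drawn from those above 0.5 times the median in both libraries and thinned evenly. Both results thus follow largely from the threshold. Loss of some copies would not be called, and a deletion much smaller than 100 kb was not simulated.

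**Figure D4:**
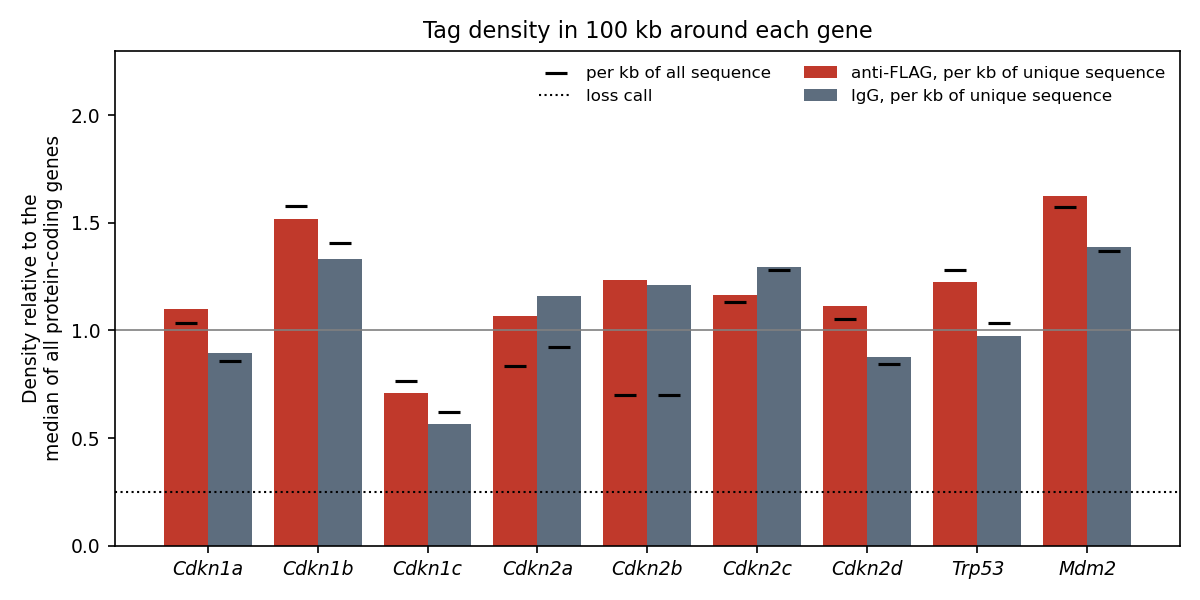
Tag density in the 100 kb around each of the 9 genes relative to the median of all protein-coding genes, with bars per kb of unique sequence for each library, dashes per kb of all sequence and a dotted line at the loss threshold of 0.25. All bars lie above 0.5, and the lowest are those of Cdkn1c, 0.709 and 0.567.

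Trp53 had 536 and 378 tags in its 100 kb, 1.28 and 1.04 times the medians, and Cdkn1b and Mdm2 stood highest at 1.58 times in the anti-FLAG library and 1.41 and 1.37 in the IgG library. Cdkn1c stood lowest per kb of unique sequence, at 0.709 and 0.567 times the median, which for IgG is percentile 2.68 of all genes. Its window is 51.5% GC, and against the tags expected from GC and unique sequence the values were 0.835 and 0.786, beside medians over all genes of 1.14 and 1.09.

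Around Cdkn2a and Cdkn2b the density changed in a step that both libraries showed. From 250 kb on the Cdkn2a side to 250 kb on the Cdkn2b side, counted from the Cdkn2a start, the libraries held 1.45 and 1.27 times the tags expected from GC and unique sequence. From 250 to 1500 kb on the Cdkn2b side they held 0.669 (95% Poisson interval 0.643 to 0.695) and 0.738 (0.713 to 0.764) times, and over the same distance on the other side 1.23 and 1.11. Single 50-kb bins varied on both sides. In the anti-FLAG library they ran from 0.839 to 1.83 on the Cdkn2a side beyond 250 kb. From 250 to 1500 kb on the Cdkn2b side they ran from 0.481 to 1.08. Nearer the genes, the bin 50 to 100 kb on the Cdkn2a side held 0.804 and 0.889 times the expected tags. At the step the anti-FLAG level went from 1.52 at 200 to 250 kb to 1.08 in the next bin and 0.811 in the one after it. Both genes lie on the side with the higher density. The position of the step was read from these bins, and its cause was not tested.

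**Figure D5:**
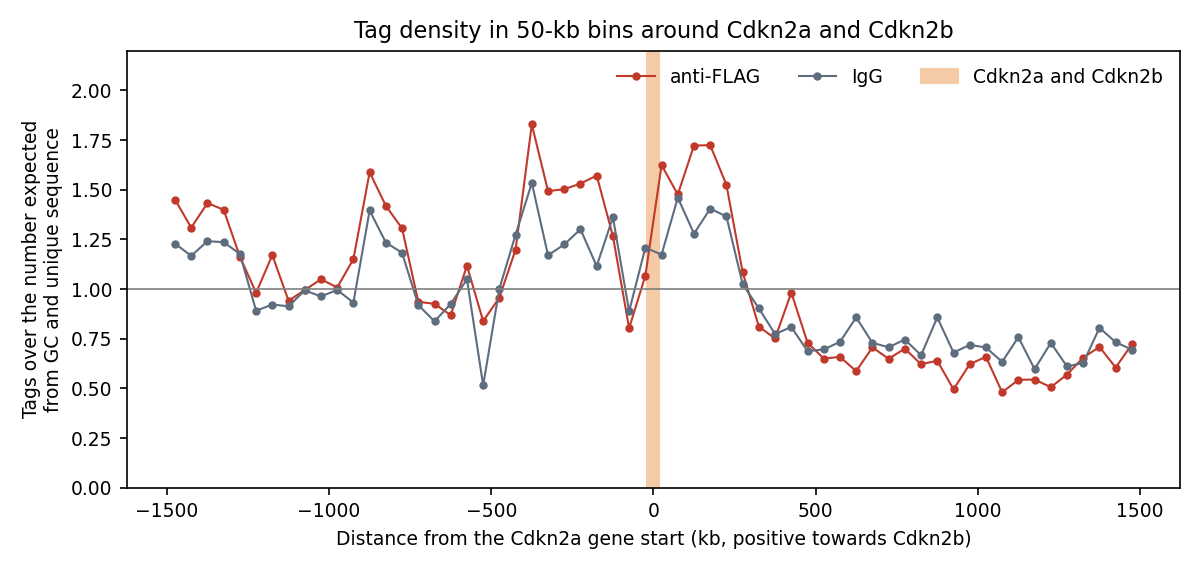
Tags in 50-kb bins over the number expected from GC content and unique sequence, in the anti-FLAG and IgG libraries, by distance from the Cdkn2a start, with the span of Cdkn2a and Cdkn2b shaded. In the interval from 250 to 1500 kb on the Cdkn2b side the 2 libraries hold 0.669 and 0.738 times the expected tags, against 1.45 and 1.27 within 250 kb of the Cdkn2a start.

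The absence of tags at Cdkn2d goes with its sequence. None of the 36-base sequences sampled in its promoter window occurs once in the genome, so uniquely placed tags could not be counted there. The stretch of such sequence, chr9:21091681-21097880, covers 6200 bp, is 2.68% unique and had 2 anti-FLAG tags and 0 IgG tags. The genome mean over all sequence would give 21.7 and 21.9. A copy of the gene lies inverted at chr9:123836871-123839608, annotated as Gm4694, with 73 of the 76 blocks of 36 bases that Cdkn2d was divided into, and it had 0 tags in both libraries too. The 36 bases just before the Cdkn2d start give an example, since they occur at chr9:21095654-21095689 on the minus strand and at chr9:123836824-123836859 on the plus strand.
Cdkn2d, 36 bases before the start: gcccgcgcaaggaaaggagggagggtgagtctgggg
The promoter counts of Cdkn2d therefore carry no measurement. Promoter windows under 10% unique make up 2.99% of all protein-coding genes, and those with 0 tags in both libraries 2.89%.

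The pathway genes around the 9 were taken as 5 lists. Of the targets of p53, 27 of 28 symbols were found and 23 promoters tested, of which 5 were higher in the anti-FLAG library and 0 lower, with a median log2 ratio of 0.69. Btg2, an antiproliferative target, had 36 against 10 tags (exact binomial test adjusted p = 0.00219) and Fas, the death receptor, 37 against 12 (0.00418 in the same test). Perp, a target with a role in apoptosis and cell adhesion, had 9 against 12. Of the regulators of p53, 10 of 19 tested promoters were higher, with a median of 1.33. These included Wrap53, whose counts are those of Trp53, and Chek2, the kinase that phosphorylates p53 after DNA breaks, with 38 against 10 (exact binomial test adjusted p = 0.00127), though the start of Hscb lies within 2 kb of that of Chek2.

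Of the cyclins, kinases and pocket proteins that the inhibitors act on or upstream of, 4 of 10 tested promoters were higher (median 1.07). Ccnd2, the gene of cyclin D2, had 21 against 1 (exact binomial test adjusted p = 0.000358), with the start of 9330179D12Rik within 2 kb. Ccna2, the gene of cyclin A2, had 30 against 7 (0.00224 in the same test), and Ccnd3, the gene of cyclin D3, 11 against 13. Of the genes for turnover of the inhibitors, 7 of 13 were higher (median 1.16), among them Cdt1, the replication licensing factor destroyed by the same ligase as p21, with 51 against 10 (exact binomial test adjusted p = 2.52e-05). Dtl, the substrate receptor of that ligase, had 45 against 15 (0.00206 in the same test), and the start of Ints7 lies within 2 kb of it. Of the chromatin regulators of the Ink4 locus and the inhibitor promoters, 9 of 18 were higher (median 1.20). The Polycomb genes Cbx8, with 30 against 4, and Eed, with 37 against 10, passed (exact binomial test adjusted p = 0.000254 and 0.00169), and Ets1, a transcription factor that activates Ink4a, had 8 against 13. With the GC correction, the promoters that passed over the 5 lists were those of Wrap53 (adjusted p = 0.0486 in the same exact test) and Cdt1 (0.0453). That is 1 of 19 tested regulators of p53 and 1 of 13 turnover genes, with 0 in the other lists, beside 1.7% of all promoters. The Wrap53 count is the same measurement as that of Trp53. Without the correction the shares of the lists stand beside 29.7% for all promoters. No difference from either share was tested.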

How the data were processed

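Chromatin precipitated with anti-FLAG M2 or with normal mouse IgG, sheared to 300-500 bp, was sequenced in 1 library each. The deposited files list 1 mapped tag of 36 bases per line, from which tags were counted; no 2 lines of a library share position and strand. A score of 512 stands on every deposited line and carries no information. Aligner, filters and build were not given in the sources used here, and tags were placed on NCBIM37 with GENCODE vM1 genes. Where tags had several places in the genome, the deposited files appear to hold few of them, so repeated sequence has low counts.

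Computations ran in Python 3.11.15 with SciPy 1.17.1 and NumPy 2.4.6. Tags were shifted by 76 bp, from the lag between strands of 152 bp in the anti-FLAG library (135 in IgG), and IgG was scaled by 0.994, the ratio of totals. Ratios are scaled tag ratios with exact 95% intervals for counting error, and log2 ratios had 1 tag added. Promoters (1 kb either side of the gene's 5′ end) and whole genes with at least 20 tags were tested by the 2-sided exact conditional binomial test, with Benjamini-Hochberg adjustment over all genes tested. For the GC correction, tag rates came from 500-bp windows over 10 kb from every gene start, in strata of 2 GC points. Windows of 66% GC or more formed 1 stratum, as did those under 22%. The expected ratio is that of the tags so expected, added up over the 500-bp parts of a promoter or gene. Unique sequence was sampled every 10 bases with 36-base words. Regions needed at least 10 tags and a 2-fold excess. Named genes were the 9, genes starting within 2 kb of one, and in each list the 2 of smallest p and the 1 with the largest excess of IgG. The 9 genes, lists and tests were chosen with earlier results of these data known. In simulated data for the 10947 promoters, 0 were called with no difference planted, and a planted 2-fold difference was found in 4 of 50, 3-fold in 13, 4-fold in 22 and 8-fold in 39. In that second simulation 10747 promoters had no difference, while 29.7% of promoters were higher in the data. The adjustment was therefore stricter there, and these counts do not give the power of the test in the data. Alternatives changed scaling, window, GC correction, shift, tag minimum, added tags, transcript start, loss threshold and region threshold.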

Additional observations from a re-analysis of the deposited data

How the results depend on the processing

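No paired analysis was possible because there was 1 library per antibody, so neither replicate blocks nor leaving out a replicate could be tried. The 3 promoters called (Trp53, Mdm2 and Cdkn1b) became 1 (Trp53) with the GC correction; the other alternatives gave 3, or 4 with a minimum of 10 tags, where Cdkn2a joined (12 against 2, exact binomial test adjusted p = 0.0455). The single gene called over its whole length became 3 with IgG scaled to low-count bins (0.909 times), 2 with a minimum of 10 tags, 0 without the kilobase at the start and 0 with the GC correction. The 2 genes with a region at the promoter became 1 at p under 1e-08 and 1 with the GC correction. The 2 promoters that differed from the rest of their gene (Trp53 and Mdm2) were 2 both with p adjusted over the 5 genes, as planned, and with p adjusted over all genes, an alternative added after seeing the data and printed above. Adjusted over the 5, they became 1 (Trp53) with the GC correction, and with 500-bp windows they were 2, Cdkn1b and Mdm2; adjusted over all genes, Trp53 did not pass with the GC correction and Mdm2 did not with 500-bp windows. The counts of lost loci and of neighbours that differed were 0 in every alternative run. Shares over all genes are given above for the main settings, the GC correction and the 500-bp windows against the rest of the gene. At the transcript start with the most tags 27.3% of all promoters tested were higher. The other alternatives have no such share here, so their counts cannot be set against all genes. Of 38 values for single promoters under an alternative, 36 kept direction and side of the threshold, and the 2 that did not were Mdm2 and Cdkn1b with the GC correction. Cdkn1a and Cdkn2c had too few tags within 500 bp for a test. Depth limits these data, so a promoter that did not pass can still differ.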
